A study of Homo sapiens with 12 samples.

Results

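The genes described here encode small Cajal body-specific RNAs (scaRNAs), the members of the small nucleolar RNA family that work outside the nucleolus. They were found by symbol: a name starting with SNORD, SNORA or SCARNA was looked for among the 14884 genes named on the arrays. The search found 23 SCARNA genes. It found 0 SNORD and 0 SNORA symbols in the annotation used here, so the guide RNAs of the nucleolus, among them the SNORD115 and SNORD116 repeats, are not analysed here. Each of the 23 genes had 1 probe set. They were taken by symbol and not by their values, though with earlier results of these data known. By their sequence boxes, 5 are C/D RNAs of 330 to 421 bases, 4 are mixed RNAs of 266 to 330 bases that join both kinds, and 14 are H/ACA RNAs of 125 to 187 bases.

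As background, scaRNAs are guides that pair with the small nuclear RNAs (snRNAs) of the spliceosome and position them for modification in Cajal bodies, nuclear bodies marked by the protein coilin. The C/D kind binds fibrillarin and directs methylation of the ribose, the H/ACA kind binds dyskerin and directs the conversion of uridine to pseudouridine, and a mixed scaRNA can do both. Most human scaRNAs lie in introns of other genes and are trimmed out of the spliced intron by exonucleases, whereas a few have a promoter of their own.

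The samples were cultures of Ishikawa, a line derived from a human endometrial adenocarcinoma, measured on 12 arrays. The labels give 4 groups of 3 arrays: shMOF ERα(+), control ERα(+), shMOF ERα(-) and control ERα(-). KAT8 encodes MOF, a histone acetyltransferase against which shMOF cells carry a short hairpin by their label, and ESR1 encodes the oestrogen receptor ERα. The labels do not say what sets ERα(+) apart from ERα(-), which sequence the hairpin has, or whether replicates are separate cultures, so the p-values measure only array-to-array spread that may be technical.

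The transcript of KAT8 did not follow the shMOF label, and that of ESR1, which was dim, had differences of opposite sign by ERα label. The group names below are therefore the labels of arrays. The log2 signal of KAT8 averaged 6.78 in shMOF ERα(+) and 6.74 in control ERα(+), with a difference of 0.04 (95% interval -0.23 to 0.31). It averaged 6.75 in shMOF ERα(-) and 6.77 in control ERα(-). ESR1 averaged 4.27 in shMOF ERα(+) and 4.42 in shMOF ERα(-), a difference of -0.15 (95% interval -0.41 to 0.12). It averaged 4.46 in control ERα(+) and 4.28 in control ERα(-), a difference of 0.18 (-0.08 to 0.45). Each of these means lies below 4.56, the signal asked for by the filter on dim genes below. RMA can compress differences at such levels, so ESR1 can say little about the labels. All 8 measured markers of endometrial epithelium lay at or above the median gene, with EPCAM at 11.53 and PAX8 at 10.71, while 0 of 3 stromal markers did, with DCN at 2.06 and LUM at 2.20. Of 6 measured immune and endothelial markers, CD68 alone lay above the median gene. The median signal of an array was 4.53 at the lowest and 4.59 at the highest. In total RNA of whole cultures, fewer cells with an RNA and less of it per cell cannot be told apart.

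The scaRNAs were well within the range of measured genes. Of the 23, 18 lay at or above the median of all genes tested, a log2 signal of 5.66, and 22 passed a filter that asks for a signal of 4.56 on at least 3 arrays. Their median was 7.36, against 3.66 over 1072 microRNA genes, another class of short RNA. Only 409 of the microRNA genes passed that filter, so they make a dim comparison in what follows. The signal of a probe set also depends on its own probes, so levels of different genes are given only to show how bright or dim each one was.

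All 5 C/D scaRNAs lay above the median gene. SCARNA9 (probe set 16730104, chromosome 11, 93721514 to 93721866, GRCh38.p14), a guide for U2, averaged 8.94 over the 12 arrays. SCARNA7, a guide for U1, averaged 7.93, SCARNA17, a guide for U4, 7.99, and SCARNA9L, a relative of SCARNA9 on the X chromosome, 7.95. SCARNA2 (chromosome 1, 109100193 to 109100612), which also guides U2, was the dimmest of them at 6.81, and it is the only one of the 23 that lies in the span of no other annotated gene. SCARNA9 and SCARNA9L are alike enough that their probes may share target RNA, which was not tested.

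All 4 mixed scaRNAs lay above the median gene as well. SCARNA12 (probe set 17118890, chromosome 12, 6967337 to 6967606), within the span of PHB2, averaged 10.61 and stood at percentile 99.2 of all genes tested. SCARNA10, the RNA first described as U85 and a guide for U5, averaged 8.79. SCARNA5 and SCARNA6, 2 further guides for U5, averaged 7.30 and 7.61, and both lie within ATG16L1 on chromosome 2.

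The 14 H/ACA scaRNAs spread over the whole range, with 9 at or above the median gene. SCARNA22 (probe set 16964098, chromosome 4, 1974636 to 1974760), an RNA within the histone methyltransferase gene NSD2, was the brightest of them at 10.28. SCARNA23, within POLA1 on the X chromosome, was the dimmest of all 23 at 4.18 and the only one to miss the filter on dim genes. SCARNA14 and SCARNA15 were dim too, at 4.80 and 4.54. The spread between arrays of a group differed widely: its pooled SD was 0.09 for SCARNA27, the steadiest, and 0.59 for SCARNA3, the most variable.

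**Figure D1:**
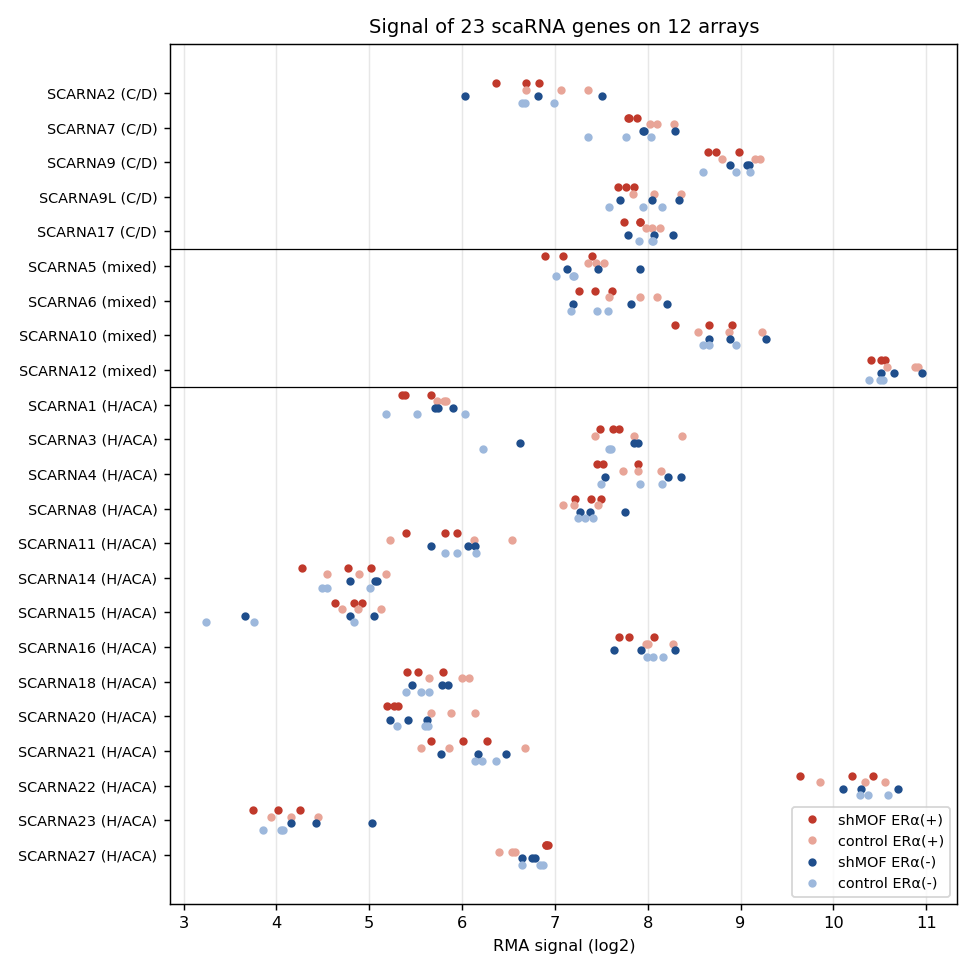
Log2 RMA signal (horizontal axis) of the 23 scaRNA genes (rows, by box class) on each of the 12 arrays. Each dot is 1 array, coloured by labelled group, with shMOF ERα(+) drawn topmost in each row. SCARNA12 and SCARNA22 sit near 10.6 and 10.3, SCARNA23 near 4.2, and the 4 groups of most genes overlap.

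The first comparison asks what differs between shMOF and control arrays in the ERα(+) condition. Most scaRNAs were lower in the shMOF arrays, by amounts that limma did not separate from the spread between arrays: 21 of the 23 log2 fold changes were below 0, against 56.2% of all genes tested. Their median was -0.26, that of all genes -0.04 and that of the microRNA genes -0.04. After Benjamini-Hochberg adjustment 0 of the 23 were called at 0.05, and so were 0 of all 14884 genes (0.0%). At an unadjusted p below 0.05, SCARNA12 and SCARNA20 were lower (8.51% of all genes) and SCARNA27 was higher (10.2%). The arrays of the groups did not overlap for 5 scaRNAs that were lower (SCARNA1, SCARNA7, SCARNA12, SCARNA17 and SCARNA20, where 14.1% of all genes were lower without overlap) and for 1 that was higher (SCARNA27, where 12.2% were).

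SCARNA20 (probe set 16847393, chromosome 17, 60231516 to 60231645, within the span of USP32), a guide for the minor-spliceosome snRNA U12, showed the largest difference of the 23 and is singled out after its values were seen, since its mean is just under the median gene. Its log2 signal was 5.27, 5.19 and 5.31 in shMOF ERα(+), against 5.88, 5.67 and 6.14 in control ERα(+). All 3 shMOF arrays lay below all 3 control arrays, and they lay close together. The log2 fold change was -0.64 ± 0.15 (SE), a ratio of 0.643, with an adjusted p of 0.223 by limma. SCARNA21, the other U12 guide, differed by -0.05 ± 0.25 only.

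SCARNA27 (probe set 17015472, chromosome 6, 8086408 to 8086533, within the span of EEF1E1) went the other way. Its signal was 6.90, 6.93 and 6.90 in shMOF ERα(+), against 6.54, 6.57 and 6.40 in control ERα(+). The shMOF arrays were nearly identical and all above the control arrays. The log2 fold change was 0.41 ± 0.11 (SE), a ratio of 1.33, with an adjusted p of 0.223. SCARNA8, a guide for U2 within HAUS6, was the only other scaRNA above 0, at 0.12 ± 0.15.

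All 5 C/D scaRNAs were below 0 in ERα(+), with a median of -0.31. SCARNA7 (probe set 16961037, chromosome 3, 160514907 to 160515236, within KPNA4) had signals of 7.79, 7.80 and 7.88 in shMOF ERα(+), against 8.10, 8.02 and 8.28 in control ERα(+). SCARNA17 (chromosome 18, 49814023 to 49814443, within SNHG22) had 7.92, 7.74 and 7.92 in shMOF ERα(+), against 7.98, 8.13 and 8.05 in control ERα(+). In both genes the groups stood apart by a narrow margin, and the log2 fold changes were -0.31 ± 0.16 and -0.19 ± 0.13 with adjusted p of 0.303 and 0.416 by limma. SCARNA2 had the largest difference of the class, -0.41 ± 0.29, but its signals of 6.83, 6.36 and 6.69 in shMOF ERα(+) overlapped 7.07, 6.69 and 7.36 in control ERα(+).

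All 4 mixed scaRNAs were below 0 too, with a median of -0.31. SCARNA12 had signals of 10.55, 10.40 and 10.51 in shMOF ERα(+), against 10.91, 10.58 and 10.88 in control ERα(+). The groups did not overlap, and the log2 fold change was -0.31 ± 0.14 with an adjusted p of 0.256 by limma. SCARNA6, at -0.43 ± 0.22, and SCARNA5, at -0.32 ± 0.18, overlapped between the groups. Of the 14 H/ACA scaRNAs 12 were below 0, with a median of -0.21 that was -0.09 without control ERα(+) replicate 3 and -0.11 without shMOF ERα(+) replicate 2. These included SCARNA18 at -0.33 ± 0.16 and SCARNA1, a guide for U2, at -0.33 ± 0.18.

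In ERα(-) the shMOF arrays were not lower. Only 6 of 23 log2 fold changes were below 0, against 50.6% of all genes, and the median was 0.17 against -0.003 over all genes. Again 0 of 23 and 0 of all genes (0.0%) were called. SCARNA7 and SCARNA23 were higher at an unadjusted p below 0.05 (2.1% of all genes), and SCARNA23 alone was higher without overlap (4.11% of all genes).

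SCARNA23, the dimmest scaRNA, had signals of 5.03, 4.16 and 4.43 in shMOF ERα(-), against 4.05, 4.07 and 3.86 in control ERα(-). The first shMOF array stood well above the rest. The log2 fold change was 0.55 ± 0.21 (adjusted p = 0.953 by limma), at a level where RMA compresses differences. All 5 C/D and all 4 mixed scaRNAs were above 0, with medians of 0.13 and 0.29, and SCARNA5 (0.37 ± 0.18) and SCARNA7 (0.35 ± 0.16) led them. The H/ACA scaRNAs were divided, 8 above 0 and 6 below. Single arrays weighed on these values. Without shMOF ERα(-) replicate 2 only 1 of 23 was below 0 and the median of the 23 was 0.29, with 0.30 for C/D and 0.45 for mixed scaRNAs. Without shMOF ERα(-) replicate 1 there were 10 below 0, the median was 0.04, and the class medians were -0.02 for C/D, 0.11 for mixed and 0.01 for H/ACA scaRNAs. Without control ERα(-) replicate 3 there were 9 below 0, with a median of 0.06 over the 23, -0.01 over the C/D and 0.009 over the H/ACA scaRNAs. Without control ERα(-) replicate 1 there were 8.

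**Figure D2:**
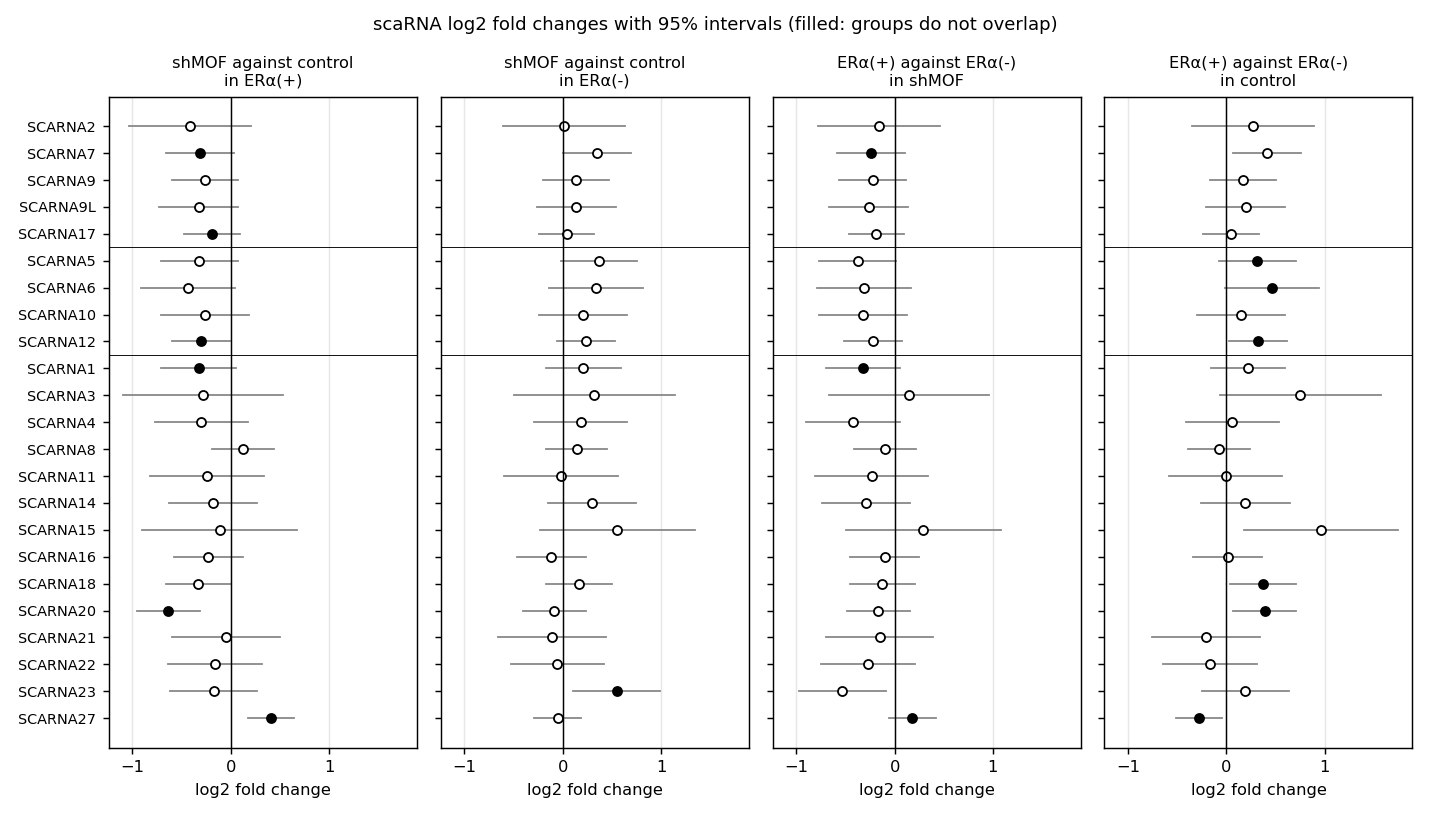
Log2 fold change (horizontal axis) of each scaRNA in the 4 comparisons of 2 groups, with 95% intervals from the limma fit. Filled points mark genes whose 3 arrays in each group do not overlap. Points lie mostly left of 0 for shMOF against control in ERα(+) and for ERα(+) against ERα(-) in shMOF, and mostly right of 0 in the other panels, with SCARNA27 on the other side in all 4.

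The condition was compared within the shMOF arrays and within the control arrays. The 2 pairs of comparisons share arrays with those above, so their values are given side by side and are no separate evidence. Between shMOF arrays, ERα(+) was below ERα(-) for 20 of 23 scaRNAs (55.0% of all genes), with a median of -0.22 against -0.03 over all genes and 0 called (0.0% of all genes). SCARNA1 and SCARNA7 were lower without overlap (5.7% of all genes) and SCARNA27 was higher (3.8%). SCARNA23 was lower at an unadjusted p below 0.05 (2.81% of all genes), at -0.53 ± 0.21. The median over the 23 was -0.11 without shMOF ERα(-) replicate 1, -0.13 without shMOF ERα(+) replicate 2 and -0.34 without shMOF ERα(-) replicate 2.

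SCARNA7 had 7.79, 7.80 and 7.88 in shMOF ERα(+), against 8.29, 7.95 and 7.96 in shMOF ERα(-), and differed by -0.24 ± 0.16 on the log2 scale, or by -0.13 without shMOF ERα(-) replicate 1. SCARNA27 had 6.90, 6.93 and 6.90 in shMOF ERα(+), against 6.79, 6.75 and 6.65 in shMOF ERα(-), and differed by 0.18 ± 0.11. Both gaps were smaller than the range of the ERα(-) arrays, and both adjusted p were 0.746 by limma.

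Between control arrays only 5 of 23 were below 0 for ERα(+) against ERα(-) (50.4% of all genes), with a median of 0.19 against -0.002 over all genes and 0 called (0.0%). SCARNA5, SCARNA6, SCARNA12, SCARNA18 and SCARNA20 were higher without overlap (10.3% of all genes) and SCARNA27 was lower (8.92%). At an unadjusted p below 0.05, SCARNA7, SCARNA12, SCARNA15, SCARNA18 and SCARNA20 were higher (6.34% of all genes) and SCARNA27 was lower (6.38%). Here too single arrays moved the median over the 23, which was 0.31 without control ERα(+) replicate 2 and 0.33 without control ERα(-) replicate 2, but 0.11 without control ERα(+) replicate 3 and 0.07 without control ERα(-) replicate 3. The number below 0 was 1 without control ERα(+) replicate 2, 8 without control ERα(+) replicate 3 and 7 without control ERα(-) replicate 3. H/ACA scaRNAs had a median of 0.13 with all arrays and -0.007 without control ERα(+) replicate 3.

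SCARNA6 (probe set 16892523, chromosome 2, 233288676 to 233288941) had 7.92, 7.58 and 8.10 in control ERα(+), against 7.57, 7.45 and 7.17 in control ERα(-). Its groups touched almost end to end, with a log2 fold change of 0.47 ± 0.22 (adjusted p = 0.399 by limma). SCARNA18 (chromosome 5, 83064204 to 83064337, within TMEM167A) had 6.0, 6.07 and 5.64 in control ERα(+), against 5.56, 5.64 and 5.40 in control ERα(-), and its closest arrays differed only beyond the second decimal. It differed by 0.37 ± 0.16 (adjusted p = 0.364 by limma).

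SCARNA12 had 10.91, 10.58 and 10.88 in control ERα(+), against 10.50, 10.53 and 10.38 in control ERα(-), a difference of 0.32 ± 0.14. SCARNA27 had 6.54, 6.57 and 6.40 in control ERα(+), against 6.64, 6.84 and 6.87 in control ERα(-), a difference of -0.28 ± 0.11. The signs of the pair were opposite here as in ERα(+) shMOF against control. SCARNA15, at 0.96 ± 0.37, and SCARNA3, at 0.75 ± 0.38, had the largest differences, and each rested on control ERα(-) arrays that were far apart: SCARNA15 had 3.24, 4.83 and 3.76 there, and SCARNA3 had 6.22, 7.58 and 7.60.

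Ordered by mean, control ERα(+) was the highest of the 4 groups for 13 of the 23 scaRNAs and shMOF ERα(+) the lowest for 13. For SCARNA27 the order was turned round, with shMOF ERα(+) highest and control ERα(+) lowest. Control ERα(-) was the lowest for 8, among them SCARNA6, SCARNA7 and SCARNA12. The arrays of shMOF ERα(-) and control ERα(-) overlapped for every scaRNA except SCARNA23.

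The interaction takes the shMOF-minus-control difference of ERα(+) and subtracts that of ERα(-), and so asks whether the 2 are unequal. It was below 0 for 21 of 23 scaRNAs (53.5% of all genes), with a median of -0.48 against -0.03 over all genes and -0.07 over the microRNA genes. By limma 0 of 23 were called, as were 0 of all genes (0.0%). At an unadjusted p below 0.05 it was below 0 for 8 (SCARNA1, SCARNA5, SCARNA6, SCARNA7, SCARNA12, SCARNA18, SCARNA20 and SCARNA23, beside 8.69% of all genes) and above 0 for SCARNA27 (9.35% of all genes).

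Among scaRNAs at or above the median gene, the largest interactions were those of SCARNA6, SCARNA5 and SCARNA7. They were at -0.77 ± 0.31, -0.69 ± 0.26 and -0.66 ± 0.23, with adjusted p of 0.241, 0.227 and 0.223 by limma. The dim SCARNA23 and SCARNA15 were at -0.72 ± 0.29 and -0.67 ± 0.52. The interaction of SCARNA27 was 0.46 ± 0.16 (adjusted p = 0.219 by limma). The other scaRNA above 0, SCARNA21, was at 0.06 ± 0.36. Mixed scaRNAs had the most negative median of the 3 classes, -0.62, beside -0.43 for C/D and -0.48 for H/ACA scaRNAs, and the classes were not tested against each other. The H/ACA median was -0.26 without control ERα(-) replicate 1. SCARNA5 and SCARNA6 lie within the same gene and ranked the arrays of each group in the same order. In shMOF ERα(-) they had 7.92, 7.13 and 7.46 and 8.21, 7.19 and 7.82. Their interactions are thus no separate results, and how far they vary independently was not tested.

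Calls depended on how arrays were weighted. With limma's array quality weights, which count less the arrays that fit their group poorly, 4 scaRNAs were called for shMOF in ERα(+) (SCARNA12, SCARNA18, SCARNA20 and SCARNA27, beside 10.9% of all genes), 2 for ERα in shMOF (SCARNA4 and SCARNA27, beside 12.9%) and 10 for the interaction (beside 21.9%). It called 0 scaRNAs for shMOF in ERα(-) (4.33% of all genes) and 0 for ERα in control (1.46%). Without shMOF ERα(-) replicate 2, SCARNA6 was called for the interaction (-1.05, adjusted p = 0.0437, beside 3.83% of all genes).

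The scaRNAs moved together from array to array, also within groups. Taking each scaRNA's difference from its own mean over the 12 arrays, the median over the 23 was 0.04, -0.30 and -0.09 in shMOF ERα(+), against 0.17, -0.09 and 0.28 in control ERα(+). It was 0.35, -0.18 and 0.10 in shMOF ERα(-), against -0.08, 0.07 and -0.23 in control ERα(-). Arrays of 1 group thus differed by more than the groups did, and the pooled SD within groups was 0.20. In shMOF ERα(-) replicate 1, 22 of 23 scaRNAs were above their own mean, and 12 had their highest value on it. In shMOF ERα(+) replicate 2 only 3 were above their mean, and 8 had their lowest value there. Over the microRNA genes the same array medians stayed between -0.04 and 0.03. Most of these genes were too dim to pass the filter, and RMA can compress differences at such levels.

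The same ordering ran through all genes. The first principal component of the 14884 genes held 36.8% of the variance, and the 4 arrays with the lowest scores on it (-32.9, -22.3, -13.3 and -9.68) were the 4 with the highest scaRNA medians. They were control ERα(+) replicate 3, shMOF ERα(-) replicate 1, control ERα(+) replicate 1 and shMOF ERα(-) replicate 3. The 3 arrays with the highest scores (29.8, 18.0 and 11.9), shMOF ERα(+) replicate 2, shMOF ERα(-) replicate 2 and control ERα(-) replicate 3, were the 3 with the lowest scaRNA medians. No label names a technical cause for this component, and its part in the scaRNA differences was not tested.

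**Figure D3:**
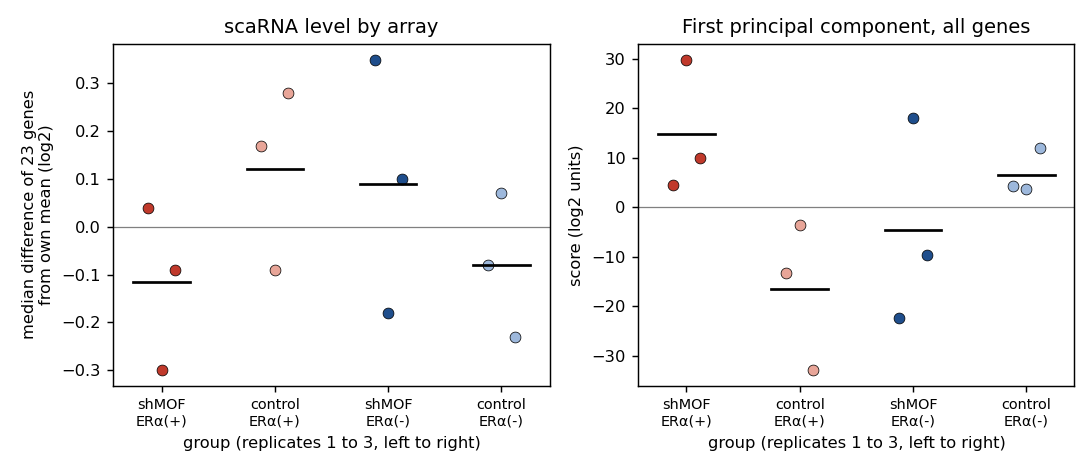
Left, the median over 23 scaRNAs of their log2 difference from their own mean, for each array by group, with the group mean as a line. Right, the score of each array on the first principal component of all genes. Arrays with high scaRNA values have low scores, within groups as well as between them.

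Counts of direction moved with that component. With its scores as a covariate, scaRNAs below 0 numbered 6 of 23 (49.2% of all genes) when shMOF was compared with control in ERα(+), and 10 (52.1%) in ERα(-). They numbered 12 (50.5%) and 16 (53.3%) when ERα(+) was compared with ERα(-) in shMOF and in control, and 8 (48.8%) for the interaction. The median for shMOF in ERα(+) was then 0.21. The component was computed from the same arrays and differs between the groups, so this fit also takes out differences between groups. Without the 2 arrays at its ends, control ERα(+) replicate 3 and shMOF ERα(+) replicate 2, the counts below 0 were 15 (51.1% of all genes), 6 (50.6%), 19 (51.9%), 8 (52.3%) and 17 (50.1%) in the same order of comparisons.

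**Figure D4:**
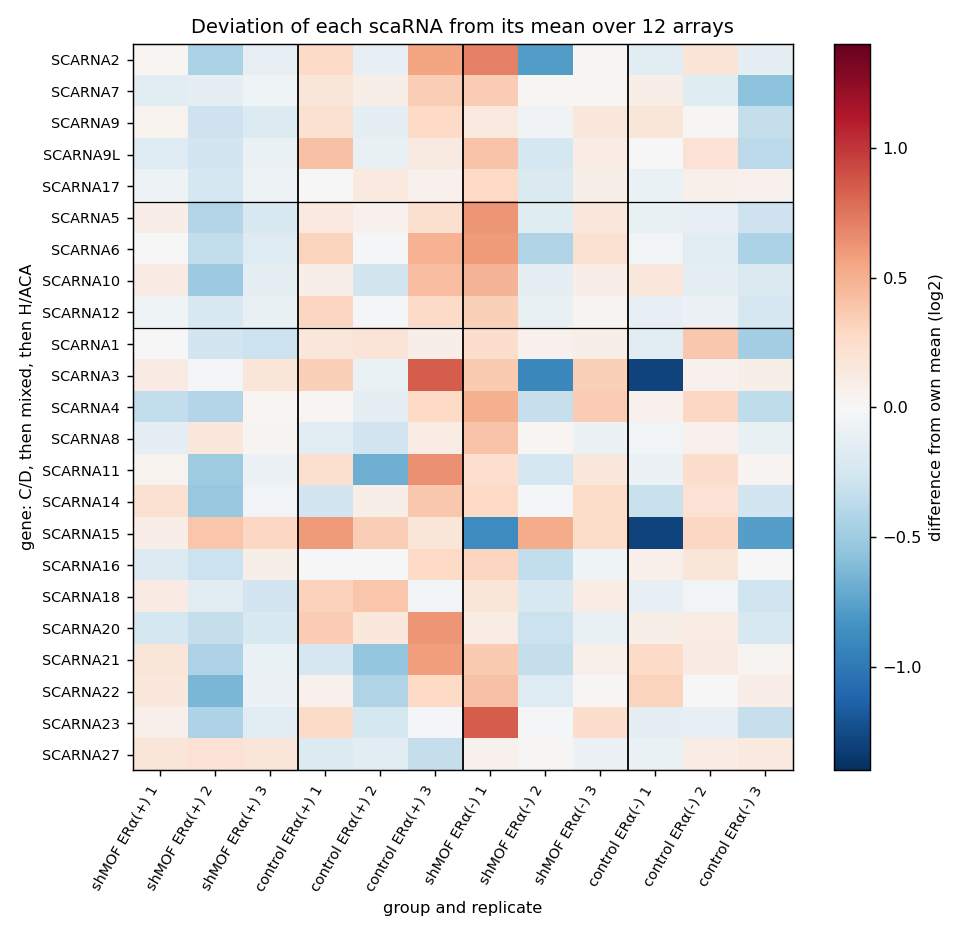
Colour map of each scaRNA's log2 difference from its own mean over 12 arrays (rows by box class, columns by group and replicate, red above and blue below). Columns are more uniform than groups: shMOF ERα(-) replicate 1 is red for 22 of 23 genes and shMOF ERα(+) replicate 2 blue for 20. SCARNA15 runs against both of these columns, and SCARNA27 runs against most columns.

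The 3 classes had medians of one sign on the arrays with the highest and the lowest scaRNA median. In shMOF ERα(-) replicate 1 the median difference was 0.35 for C/D, 0.54 for mixed and 0.29 for H/ACA scaRNAs. In shMOF ERα(+) replicate 2 it was -0.27 for C/D, -0.38 for mixed and -0.31 for H/ACA scaRNAs. On some other arrays the classes differed in sign: in control ERα(-) replicate 2 the median was 0.07 for C/D, -0.12 for mixed and 0.11 for H/ACA scaRNAs. SCARNA15 had 3.66, 5.05 and 4.79 in shMOF ERα(-), so that within this group it was lowest on the array where most scaRNAs were highest.

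Of the 23 scaRNAs, 22 lie within the span of another gene in the RefSeq table (GRCh38.p14), which gives no strand or exon for them. Of these, 13 have a holding gene measured on the arrays, 12 genes in all. SCARNA11, SCARNA15 and SCARNA16 are paired with CHD4, FSD2 and SNHG20. Each also lies in the span of an unmeasured gene (CHD4-AS1, SNHG21 and SEC14L1), and which gene is the host was not checked. FSD2 was dim, at 4.22. If a probe set within an intron also reads unspliced RNA of its holding gene, the pair would share signal, which was not tested. For shMOF in ERα(+) the median over the 12 holding genes was -0.04, and the scaRNA lay below its holding gene in 12 of 13 pairs, with 0 holding genes called.

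In ERα(+) 9 of the 13 pairs had the same sign, and 3 of opposite sign are given here. None of their genes was called by limma, and the difference within a pair was not tested. CEP295, a centriole protein gene that holds SCARNA9, was at 0.73 ± 0.24 in shMOF against control, whereas SCARNA9 was at -0.26 ± 0.16. KPNA4, an importin gene that holds SCARNA7, was at 0.27 ± 0.14, against -0.31 ± 0.16 for SCARNA7. TMEM167A, which holds SCARNA18, was at 0.35 ± 0.17, against -0.33 ± 0.16 for SCARNA18. The 3 pairs were opposite in sign for ERα in control too, where CEP295 was at -0.40 ± 0.24, KPNA4 at -0.38 ± 0.14 and TMEM167A at -0.15 ± 0.17, comparisons that share the control ERα(+) arrays.

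Over all 13 pairs, the scaRNA and its holding gene had the same sign in 9 when shMOF was set against control in ERα(+), and in 5 in ERα(-). They had it in 8 pairs when ERα(+) was set against ERα(-) among shMOF arrays, in 6 among control arrays, and in 7 for the interaction. ATG16L1, an autophagy gene that holds SCARNA5 and SCARNA6, was at -0.11 ± 0.16 between shMOF and control in ERα(+), at 0.43 ± 0.16 in ERα(-) and at -0.54 ± 0.22 for the interaction, the same signs as both scaRNAs. PHB2, a prohibitin gene that holds SCARNA12, was at -0.21 ± 0.13 in ERα(+) and 0.04 ± 0.13 in ERα(-). SNHG20, a noncoding gene that holds SCARNA16, was at -0.19 ± 0.17 in ERα(+) beside -0.23 ± 0.16 for the scaRNA. NSD2 lay between -0.05 and 0.04 in the 5 comparisons, and SCARNA22 within it between -0.27 and -0.06, with opposite signs for shMOF in ERα(-) and for ERα in control.

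**Figure D5:**
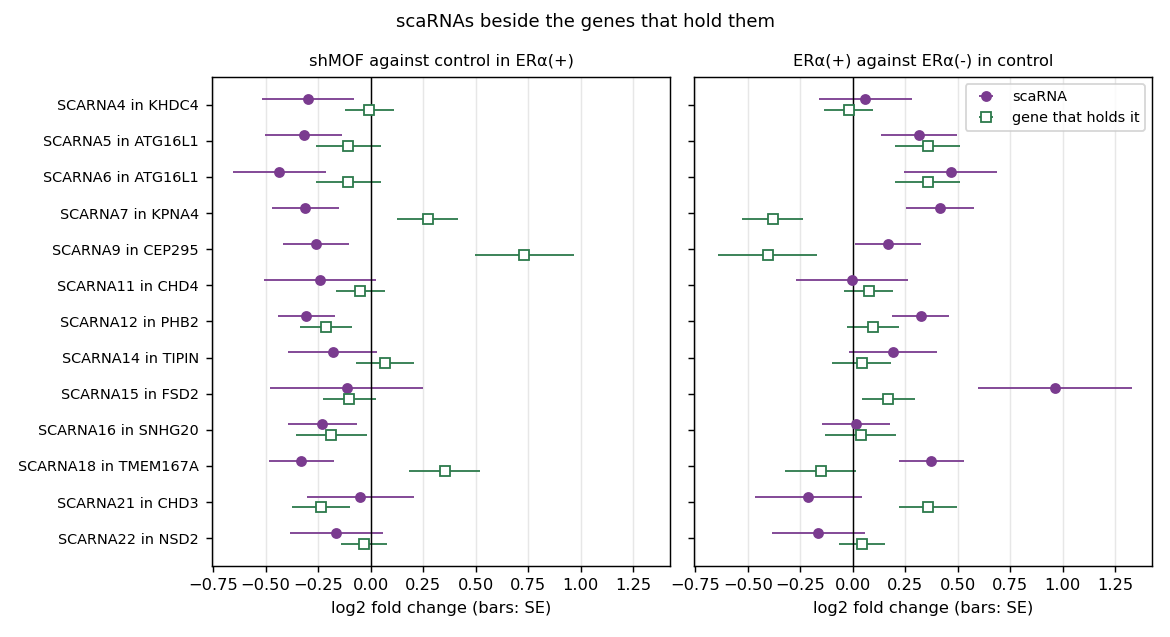
Log2 fold changes with SE of 13 scaRNAs (filled circles) and of the gene whose span holds each (open squares), for shMOF against control in ERα(+) on the left and ERα(+) against ERα(-) in control on the right. CEP295, KPNA4 and TMEM167A lie on the other side of 0 from the scaRNAs they hold, while ATG16L1 lies on the same side as SCARNA5 and SCARNA6.

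The proteins that scaRNAs work with were followed by lists, none of whose measured members was called in any comparison. Of the 3 measured C/D proteins, FBL, the methyltransferase fibrillarin, was at -0.34 ± 0.15 for shMOF in ERα(+) and SNU13, which binds the C/D motif, at -0.34 ± 0.16, whereas NOP58, a core scaffold protein, was at 0.47 ± 0.18. The 3 measured H/ACA proteins NHP2, NOP10 and GAR1, which bind dyskerin in the particle, were all below 0 in ERα(+) (median -0.21) and all above 0 in ERα(-) (median 0.13). The median of the 14 H/ACA scaRNAs was below 0 in ERα(+) and above 0 in ERα(-), where 6 of them were below 0.

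Assembly factors were divided, 4 of 8 measured members below 0 in ERα(+), with RUVBL2, an ATPase of the R2TP complex, at -0.41 ± 0.18 and RPAP3, its adaptor, at 0.74 ± 0.26. Another list was drawn up under Cajal bodies, without a check that each protein resides there. Among its 5 measured genes, COIL, which encodes coilin, was at 0.10 ± 0.13 and TCOF1 at -0.31 ± 0.13. PHAX, an export adaptor for snRNAs, was at 0.35 ± 0.15. All 6 measured trimming and decay genes were above 0 in ERα(+), with DIS3, an exosome nuclease, at 0.63 ± 0.23 and MTREX, the exosome's helicase, at 0.55 ± 0.21. In ERα(-) 5 of these 6 were below 0, with DIS3 at -0.17 ± 0.23.

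A further list named host genes of the small nucleolar RNA family, among them SNHG20, which holds SCARNA16. Of its 22 measured genes 17 were below 0 in ERα(+), with a median of -0.18 against -0.04 over all genes. Those below 0 included SNHG10 at -0.39 ± 0.14 and SNHG17 at -0.38 ± 0.15, and GAS5 was at 0.16 ± 0.14. Of 4 measured genes of ribosomal RNA synthesis 3 were above 0, with RRN3, an initiation factor of RNA polymerase I, at 0.44 ± 0.15. The 8 epithelial markers ran with the scaRNAs: 7 were below 0 for shMOF in ERα(+) (median -0.36) and 8 for the interaction (median -0.50). Their summed log2 signal ranged from 67.2 to 69.4 in shMOF ERα(+), against 70.1 to 71.6 in control ERα(+), and from 68.1 to 70.7 in shMOF ERα(-), against 67.6 to 68.9 in control ERα(-). The part of epithelial marker level in the scaRNA differences was not tested.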

How the data were processed

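The authors deposited log2 values, for which the submitters' processing notes name RMA in Affymetrix Expression Console 1.4.1. RMA corrects background, equalises the arrays' distributions and summarises each probe set, and it can compress differences of dim transcripts. Each array held 53617 probe sets, 16098 of them with 1 gene symbol in the platform annotation, and 14884 genes were each represented by their brightest one on average. A mean per group was fitted over 12 arrays with lmFit and eBayes of limma 3.58.1 under R 4.3.3 (two-sided tests, 8 residual and 5.6 prior degrees of freedom) on all genes, with no filter. The Benjamini-Hochberg adjustment ran over all genes in each of 5 comparisons, and genes were called below an adjusted p of 0.05. Since the smallest exact p for 3 against 3 arrays is 0.1, limma's pooled spread was used. The number of arrays limits the precision: the median half-width of a scaRNA's 95% interval was 0.40 between 2 groups and 0.57 for the interaction.

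The scaRNAs, the gene lists and the tests were chosen with earlier results of these data known. Genes were named where called, where among the 3 largest differences per direction of a comparison without overlap at or above the median gene, where brightest or dimmest, or where of known special role. Positions come from the RefSeq table (GRCh38.p14), which all 23 genes matched, and the build behind the probe sets is not given in the sources used here. No sequence of these RNAs was held by the tables used here. Alternatives were the mean of all probe sets, a filter on dim genes, 2 normalizations, array quality weights, a trend of variance with mean, fits of 2 groups alone, the replicate number or code letter as a block, and each array left out. The code letter is the first letter of a sample's description, and its meaning is not given. Only letter B occurs in more than 1 group, control ERα(-) and shMOF ERα(-). Letter and group can therefore hardly be told apart. After seeing the data, the first principal component as a covariate, the 2 arrays at its ends left out, and SCARNA9L left out were added. Same-numbered arrays did not deviate together throughout (correlations from -0.179 to 0.453), so replicate numbers were not taken to pair arrays.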

Additional observations from a re-analysis of the deposited data

Results flagged for a closer look

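SCARNA27 was singled out because its 2 condition differences ran in opposite directions with no overlap of arrays in either. ERα(+) was higher than ERα(-) in the shMOF arrays (0.18 on the log2 scale) and lower in the control arrays (-0.28). The test of the difference itself, the interaction, was 0.46 with an adjusted p of 0.219 by limma, so it did not pass. The scaRNA had 6.90, 6.93 and 6.90 in shMOF ERα(+), against 6.79, 6.75 and 6.65 in shMOF ERα(-), and 6.54, 6.57 and 6.40 in control ERα(+), against 6.64, 6.84 and 6.87 in control ERα(-).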

How the results depend on the processing

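The direction of the median over all 23 scaRNAs held under each of 21 alternative settings (a fit of only the groups compared has no value for the interaction), and counts of calls did not. These 21 leave out the settings added after seeing the data. Many of the 21 could not change it. The mean of all probe sets (1 per scaRNA), the variance trend, the replicate block and fits of 2 groups alone keep each scaRNA's log2 fold change. Leaving out an array that a comparison does not use keeps it too. With array quality weights the genes called numbered 1629 between shMOF and control in ERα(+), 645 in ERα(-), 1918 between ERα(+) and ERα(-) in shMOF, 217 in control and 3258 for the interaction. The scaRNAs called with these weights numbered 4 for shMOF in ERα(+), 2 for ERα in shMOF and 10 for the interaction. Fits of only the groups compared called 9 genes for ERα in control, and the code letter as a random block called 5 for the interaction. The replicate block called 2 genes for the interaction and 0 scaRNAs in any comparison. It could not move a scaRNA median or direction, because each group holds 1 array of each replicate number. Leaving out 1 array gave 0 to 30 genes called for shMOF in ERα(+), 0 to 5 in ERα(-), 0 to 11 for ERα in shMOF, 0 to 4 for ERα in control and 0 to 570 for the interaction, each highest without shMOF ERα(-) replicate 2. It gave 0 to 1 scaRNAs called for the interaction, an H/ACA interaction median from -0.58 to -0.26, a median scaRNA level in control ERα(-) from 7.11 to 7.31, and a SCARNA21 interaction from -0.18 to 0.38, below 0 in 5 of 12 cases (-0.03, -0.18, -0.009, -0.09 and -0.13). With array scores of the first principal component in the fit, chosen after seeing the data, the median of all 23 was 0.21 for shMOF in ERα(+), -0.018 for ERα in shMOF, -0.11 for ERα in control and 0.10 for the interaction. By class, for shMOF in ERα(+), ERα in control and the interaction, it was 0.0304, -0.0668 and 0.0226 for C/D, 0.18, -0.0199 and 0.0212 for mixed, and 0.27, -0.18 and 0.23 for H/ACA scaRNAs, and -0.00487 for mixed scaRNAs for ERα in shMOF. SCARNA17 was then at 0.016 for shMOF in ERα(+), and SCARNA6 at -0.00862 for ERα in control and 0.10 for the interaction. Without the 2 arrays at the ends of that component, 1 gene was called for shMOF in ERα(+) and 1 for the interaction, whose H/ACA median was -0.20. The median of all 23 was then -0.11 for shMOF in ERα(+), against -0.26 with all arrays, and -0.29 for the interaction, against -0.48. It was -0.13 for ERα in shMOF, against -0.22, and 0.11 for ERα in control, against 0.19. For shMOF in ERα(-) it stayed at 0.17. The cause of these shifts was not tested. The number of arrays and the dimness of SCARNA14, SCARNA15 and SCARNA23 limit what could be seen.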
